A study of Mus musculus with 6 samples.

Results

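The forkhead transcription factors are described here in mouse Müllerian duct mesenchyme of both sexes. They were taken by name, as every gene whose symbol is Fox followed by a subfamily letter and a number, which gave 43 of the 37991 gene identifiers in the count files. Foxl1 carries such a symbol in the reference annotation and was not analysed here. The 43 genes fall into 19 subfamilies, from A to S.

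RNA sequencing was done on cells sorted for yellow fluorescent protein (YFP) from embryos at embryonic day 14.5. All 6 libraries, 3 female and 3 male, came from embryos of the genotype Amhr2Cre/+, R26R YFP/+ on a strain given as C57BL/6J x 129/SvEv mixed. By the labels the females and the males thus carried the same Amhr2Cre and R26R YFP alleles, and no agent is named. In this design YFP marks cells in which Cre driven from the Amhr2 locus is or was active, and Amhr2 encodes the receptor of anti-Müllerian hormone (AMH), the testis hormone that makes the duct regress in males. Each library pooled embryos, 2 to 7 of them, with at least 100 ng of total RNA. The labels call the replicates biological, but a pool hides the spread between single embryos, and p-values measure the spread between these pools. In bulk samples, fewer cells of a type and less RNA per cell cannot be told apart. The series title names osterix, the product of Sp7, as an effector downstream of AMH in duct regression, and the comparison is of male with female mesenchyme.

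Forkhead factors bind DNA through a winged-helix domain, the forkhead box, and many of them bind a shared core sequence. Members of the A subfamily open chromatin in gut and duct epithelium, C and F members pattern mesenchyme and vessels, L2 maintains ovarian granulosa cells, and J1 drives motile cilia. M1 switches on genes of the later cell cycle, and the O members are held in the cytoplasm by insulin and AKT signalling and act on arrest, stress resistance and metabolism.

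The libraries held 22511872 to 24749859 counts in genes, and forkhead genes took 18103 to 25435 of these. Summed over the family, the level was 829, 890.1 and 1018 CPM (counts scaled to a common library size, after correction for library composition) in female replicates 1 to 3. The male replicates 1 to 3 stood at 849, 989 and 1055 CPM, so the sexes overlapped. Amhr2 itself ranged from 324 to 784 CPM in the females and from 160 to 462 CPM in the males, and Sp7 was at 27.5 to 31.9 CPM in the females and at 185 to 282 CPM in the males. All 11 of 11 listed duct mesenchyme markers were measured, with a summed level of 5987 to 9277 CPM in the females and 7736 to 9176 CPM in the males, of which Col1a1, Col1a2 and Col3a1 were the highest. Of the 11, edgeR and DESeq2 called 0, with 3 at an unadjusted p under 0.05 in edgeR, and under the adjustment for GC content described below Amhr2 (adjusted p = 0.0256), Hoxa10 and Hoxa11 were called lower and Pdgfra higher in males.

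No forkhead gene differed between the sexes past the threshold, a p of 0.05 in edgeR's quasi-likelihood test after Benjamini-Hochberg correction across the 15227 genes tested. Of those 15227 genes 1.23% passed, so 0 of the 20 forkhead genes tested is close to the background. The smallest adjusted p in the family was 0.176, for Foxl2. Before adjustment, 4 forkhead genes had a p under 0.05 in edgeR, namely Foxl2, Foxc1, Foxc2 and Foxp4, or 4 of 20, where 9.18% of all tested genes did. DESeq2 called 2 of the 20, Foxc1 and Foxl2, against 3.95% of all genes it tested, and limma-voom called 0, against 1.43%. The log2 fold change of male over female was positive for 9 genes and negative for 11, with a median of -0.07 beside -0.01 over all genes tested. For 4 of the 20 genes the 95% interval of the log2 fold change lay within 1 in both directions. For the other 16 a 2-fold difference lay within the interval or was exceeded.

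In 5 of the 20 tested forkhead genes, or 25%, the female and male libraries did not overlap, where 13.7% of all tested genes did so. Foxc1 and Foxc2 lay higher in all male libraries, and Foxl2, Foxm1 and Foxk1 lay lower. The 5 genes are described below with Foxp4 and Foxp1, which were called once the libraries were adjusted for transcript GC content. That adjustment took off, library by library, a smooth trend of the counts with the GC content and length of each gene's longest transcript, and under it 5.94% of all genes were called.

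**Figure D1:**
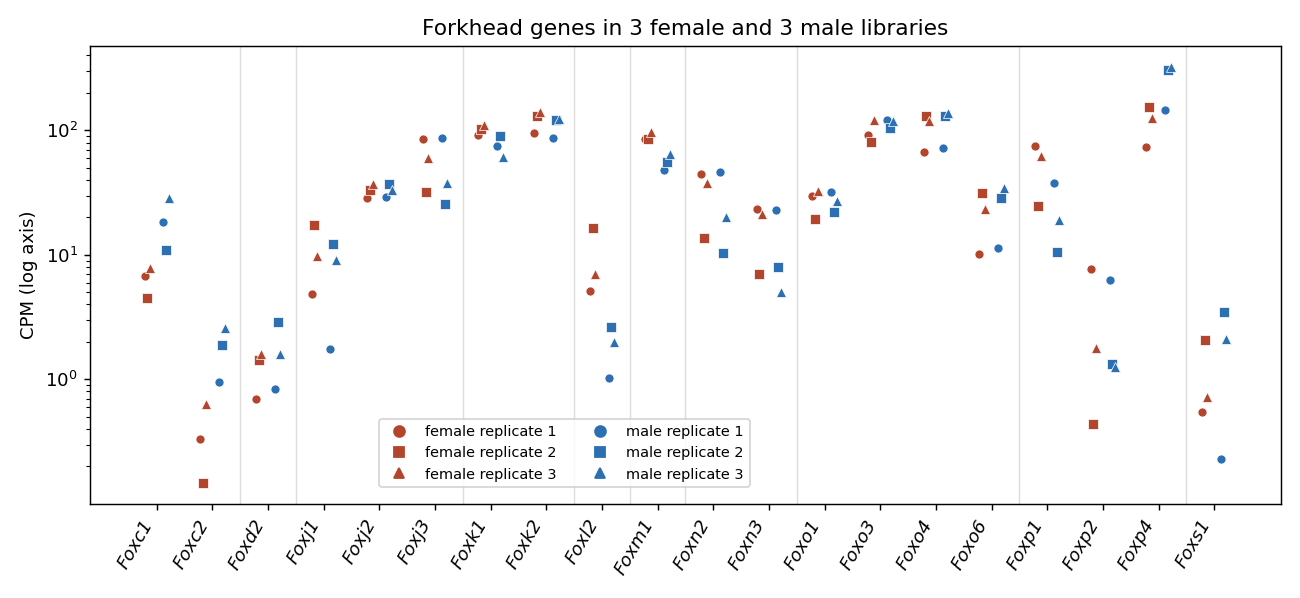
CPM of the 20 tested forkhead genes on a log axis, 1 point per library, females in red on the left and males in blue on the right of each gene, with circle, square and triangle for replicates 1, 2 and 3 and grey lines between subfamilies. Foxl2 lies lower and Foxc1 and Foxc2 lie higher in all 3 male libraries, while in Foxp2, Foxn2 and Foxj3 the circles of both sexes stand apart from the squares.

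Most forkhead genes were silent or nearly so in these cells. No count fell on 6 of the 43 in any library, namely Foxa1, Foxb1, Foxd3, Foxd4, Foxi1 and Foxi2. A count of 0 allows up to 3 counts, here among 141942578 counts over all libraries, and this limit covers counting error only. A further 17 genes had between 1 and 58 counts over all 6 libraries and were too low to test. By the same filter 15227 of all 37991 identifiers were tested, so untested genes were not particular to this family. The 20 tested genes had at least 152 counts each, and they belong to the subfamilies C, D, J, K, L, M, N, O, P and S. The O subfamily took 28.2% of all forkhead counts, P 24.3%, K 21.7%, J 10.6%, M 7.81% and N 4.90%.

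Levels of different genes were compared as CPM per kilobase of the longest transcript, averaged over the 6 libraries with the SD between libraries. Foxp4 stood first at 47.2 ± 25.5 CPM per kilobase, and Foxo4 second at 34.6 ± 9.98, but this order turned with sex: Foxp4 lay above Foxo4 in all 3 male libraries and below it in all 3 female libraries. Foxk2 followed at 23.1 ± 4.05, below Foxo4 and above Foxm1 in 6 of 6 libraries. Foxm1 at 15.6 ± 4.15 and Foxo3 at 15.5 ± 2.46 had nearly the same mean, with Foxm1 the higher in all 3 females (19.2 against 14.3) and the lower in all 3 males (12.1 against 16.7). Next came Foxk1 at 11.9, Foxj3 at 11.4, Foxo6 at 8.85, Foxj2 at 6.28, Foxn2 at 5.66 and Foxp1 at 5.35 CPM per kilobase, and each of these neighbours exceeded the next in only 3 or 4 of 6 libraries. Foxj1 stood at 3.50, Foxo1 at 3.13, Foxc1 at 2.20, Foxn3 at 1.91, Foxl2 at 1.75, Foxs1 at 1.17, Foxd2 at 0.581, Foxp2 at 0.464 and Foxc2 at 0.399 CPM per kilobase. Among these, Foxo1 exceeded Foxc1 and Foxn3 exceeded Foxl2 in 5 of 6 libraries, and the other neighbours exceeded the next in 3 or 4. Foxn2 and Foxp1, and Foxc1 and Foxn3, also stood in opposite orders in the 2 sexes, with Foxn2 above Foxp1 and Foxc1 above Foxn3 in all 3 males and below in all 3 females. The genes from Foxp4 down to Foxk1 were therefore P, O, K and M members, but other O and P members stood lower, down to Foxo1 at 3.13 and Foxp2 at 0.464. The tested C, D, L and S members were at 2.20 CPM per kilobase or less, as were Foxn3 and Foxp2.

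**Figure D2:**
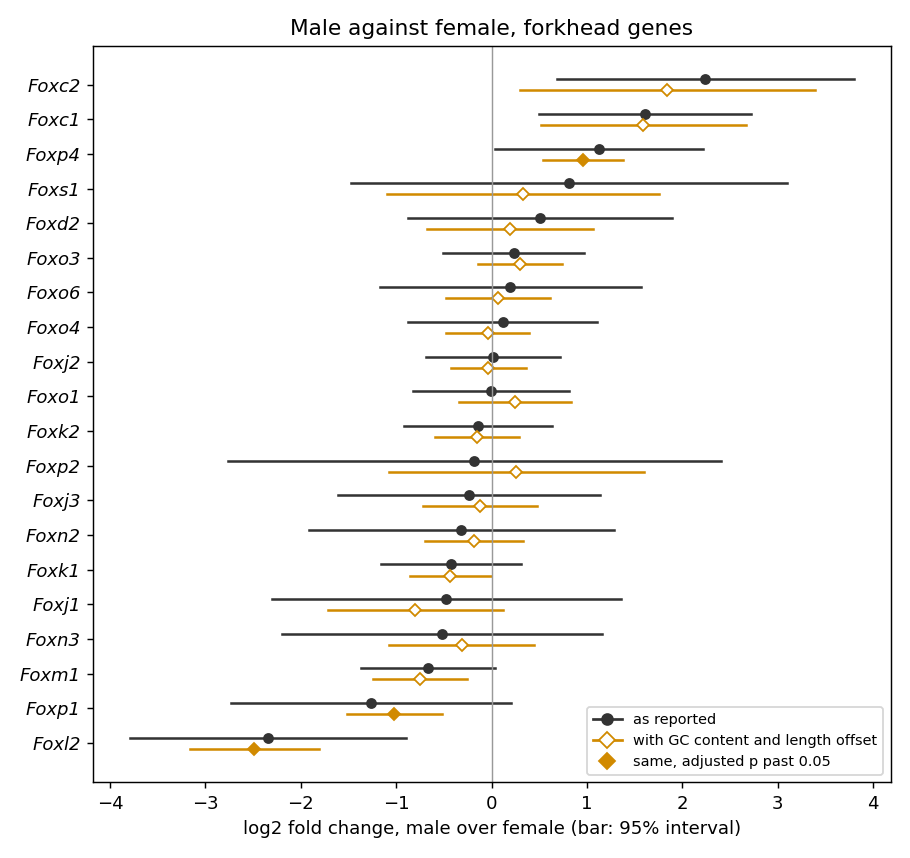
Log2 fold change of male over female for the 20 tested forkhead genes, sorted, with 95% intervals, in grey as tested with sex alone and in orange with the adjustment for GC content and length. Filled orange diamonds mark the 3 genes past the threshold under the adjustment, Foxl2, Foxp1 and Foxp4, and the orange intervals are narrower than the grey ones for most genes.

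Foxl2 (ENSMUSG00000050397, chromosome 9) encodes the factor that maintains granulosa cells of the ovary. It was measured at 5.11, 16.5 and 7.04 CPM in the females and at 1.03, 2.62 and 1.98 CPM in the male libraries. Every female library lay above every male library, the closest pair being 5.11 against 2.62 CPM. The mean was 9.54 ± 6.08 CPM in the females and 1.88 ± 0.799 CPM in the males (SD, n = 3 per sex). The log2 fold change was -2.34 (SE 0.61, 95% interval -3.79 to -0.90, edgeR adjusted p = 0.176). DESeq2 gave -2.31 with an adjusted p of 0.00967.

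After the adjustment for GC content and length the Foxl2 levels were 8.43, 11.9 and 7.22 CPM in the females and 1.64, 1.74 and 1.53 CPM in the males. The values within each sex came closer together, and Foxl2 fell in males by 2.49 on the log2 scale (SE 0.28, edgeR adjusted p = 0.0044). With this adjustment Foxl2 was called in 6 of 6 fits that left out 1 library, with adjusted p from 0.0129 to 0.0427. Foxl2os, a non-coding RNA on the opposite strand, overlaps the gene and was not analysed here, and without strand its reads cannot be told from those of Foxl2.

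Foxl2 is also a marker of pregranulosa cells of the embryonic ovary, which the sort could hold. Of 10 markers in that list 8 were tested, Foxl2 included, with 1 called lower in males (Irx5, log2 fold change -2.71, edgeR adjusted p = 0.0478), 0 called higher and a median of -1.41. The call of Irx5 was lost in 6 of 6 fits that left out a library, with adjusted p from 0.0997 to 0.337. Of the 8, 5 lay lower and 1 higher in all male libraries, where 7.27% and 6.47% of all tested genes did. DESeq2 called 3 lower and 1 higher, and edgeR with the GC and length adjustment 4 lower (Foxl2, Irx3, Irx5 and Runx1) and 1 higher (Wnt4). On the log2 scale the male over female difference was -3.73 for Irx3 (adjusted p = 0.0582 in edgeR), -1.72 for Runx1, a runt factor with 6206 counts (adjusted p = 0.311), and -1.10 for Rspo1, a WNT agonist of the ovary (adjusted p = 0.455). Without Foxl2 the list summed to 172 to 234 CPM in the females and 305 to 569.7 CPM in the males, and most of it was Wnt4. Without Wnt4 and with Foxl2 it summed to 91.6 to 125 CPM in the females and 22.4 to 49.8 CPM in the males. Of its defining markers, Cyp19a1 had 1 count and Esr2 32 counts over all 6 libraries. On the male side, 8 of 8 Sertoli cell markers were tested, and edgeR called 3 higher (Sox9, Amh and Cst9). Among all tested genes 1.23% were called in either direction. The sum was 21.0 to 28.4 CPM in the females and 81.4 to 135 CPM in the males. Those 3 edgeR calls held in 1 of 6 fits that left out a library, the fit without male replicate 1. DESeq2 called 5 of the 8 higher and 0 lower, against 3.95% of all genes it tested. With the GC and length adjustment 5 were called higher, Dhh and Sox8 in addition, against 5.94% of all genes. In 6 of the 8 all male libraries lay higher, where 6.47% of all tested genes did. The part of gonadal cells in the Foxl2 values was not tested.

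Foxp4 (ENSMUSG00000023991, chromosome 17) and Foxp1 (ENSMUSG00000030067, chromosome 6) encode repressors of the P subfamily that act in lung, gut and heart development and bind DNA as dimers with each other. They lay on opposite sides of 0. Foxp4 was at 74.0, 155 and 127 CPM in the females and at 147, 305 and 325 CPM in the males. Male replicate 1 lay just under female replicate 2, so the sexes overlapped by 1 library. The means were 119 ± 41.3 CPM in the females and 259 ± 97.5 CPM in the males (SD, n = 3 per sex). The log2 fold change was 1.13 (SE 0.46, 95% interval 0.04 to 2.22, edgeR adjusted p = 0.516).

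With the GC and length adjustment Foxp4 stood at 117, 118 and 124 CPM in the females and at 226, 213 and 259 CPM in the males, with no overlap. Under it Foxp4 rose in males, by 0.96 on the log2 scale (SE 0.18, adjusted p = 0.0244 in edgeR). That call held in 1 of 6 fits with a library left out, the fit without male replicate 1, with adjusted p from 0.0452 to 0.175 over the 6.

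Foxp1 was at 75.0, 24.9 and 62.8 CPM in the females and at 38.1, 10.5 and 19.3 CPM in the males. Within each sex replicate 1 was the highest and replicate 2 the lowest, and the sexes overlapped. Male over female, the log2 fold change was -1.26 (SE 0.61, 95% interval -2.73 to 0.20, edgeR adjusted p = 0.694). After adjustment the levels were 41.1, 41.3 and 51.4 CPM in the females and 21.5, 18.4 and 26.1 CPM in the males, again with no overlap. Under the adjustment Foxp1 fell in males by 1.02 on the log2 scale (SE 0.21, edgeR adjusted p = 0.0369), and the call was lost in 6 of 6 fits that left out a library (adjusted p 0.0739 to 0.201). A small share of its exon bases, 2.18%, is shared with the gene model Gm20696, which had 10 counts.

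The remaining P members were low. Foxp2, a factor known for speech and motor circuits, was at 7.75, 0.443 and 1.80 CPM in the females and at 6.23, 1.33 and 1.26 CPM in the males, a log2 fold change of -0.18 (SE 1.08). It spanned a range of 17.5-fold between libraries, the widest among the tested forkhead genes, with replicate 1 far above the others in each sex. Foxp3, the factor of regulatory T cells, had 28 counts in the females and 30 in the males, a ratio of 1.06 (exact 95% interval 0.614 to 1.85, counting error only). Its exons share 18.6% of their bases with Flicr on the same strand, and 12.9% with Ccdc22 and 5.81% with Ppp1r3f on the opposite strand, so these counts are uncertain. Of 11 leukocyte markers 6 were tested and 0 called, with edgeR giving 0 at an unadjusted p under 0.05 and DESeq2 also 0. The list summed to 7.42 to 12.3 CPM in the females and 9.78 to 15.7 CPM in the males, with Cd3e at 1 count and Ptprc at 21.

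Foxc1 (ENSMUSG00000050295, chromosome 13) and Foxc2 (ENSMUSG00000046714, chromosome 8) encode closely related factors of paraxial and urogenital mesenchyme, vessels and the eye. Both lay higher in every male library. Foxc1 was at 6.72, 4.47 and 7.88 CPM in the females and at 18.5, 10.97 and 28.8 CPM in the males. The mean was 6.36 ± 1.73 CPM in the females and 19.4 ± 8.94 CPM in the males (SD, n = 3 per sex). This gave a log2 fold change of 1.61 (SE 0.47, 95% interval 0.49 to 2.72, edgeR adjusted p = 0.236), and DESeq2 gave 1.62 with an adjusted p of 0.0414. The GC and length adjustment left it nearly where it was, at 1.59 (SE 0.45, edgeR adjusted p = 0.107).

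Foxc2 rested on few reads, with 9, 3 and 16 counts in the females and 25, 38 and 61 in the males. In CPM these were 0.331, 0.148 and 0.640 against 0.956, 1.88 and 2.57, so the closest female and male libraries stood at 0.640 and 0.956. The log2 fold change was 2.24 (SE 0.65, 95% interval 0.68 to 3.80, edgeR adjusted p = 0.239), and 1.84 (SE 0.65) after adjustment. DESeq2 gave 2.29 with an adjusted p of 0.0512.

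Both genes also mark vessel cells. Of 12 endothelial markers 10 were tested and edgeR called 0, with 3 at an unadjusted p under 0.05, while DESeq2 called 1 higher and 2 lower in males. The 2 with the smallest p were on the lower side, Erg (log2 fold change -2.52, edgeR adjusted p = 0.107) and Esam (-1.61, adjusted p = 0.191), and Kdr came next on the higher side (1.65, adjusted p = 0.241). Under the GC and length adjustment Esam was called lower (adjusted p = 0.0098) and Kdr higher (adjusted p = 0.0109). The list summed to 62.9 to 105 CPM in the females and 150.2 to 333 CPM in the males, and 88.2% of it was Kdr, at 66.2 ± 23.4 CPM in the females and 208 ± 98.3 CPM in the males. Without Kdr the sum was 18.7 to 22.5 CPM in the females and 14.5 to 17.2 CPM in the males. The defining markers were low in both sexes, with Pecam1 at 1.18 to 1.72 CPM in the females and 0.841 to 1.43 CPM in the males, and Cdh5 at 1.2 to 1.87 CPM and 1.45 to 2.52 CPM. The part of endothelial cells in the Foxc1 and Foxc2 values was not tested.

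Foxc1 and Foxc2 each have an F gene as a neighbour, Foxf2 beside Foxc1 on chromosome 13 with Foxq1 on its other side, and Foxf1 beside Foxc2 on chromosome 8. The F factors are targets of hedgehog signalling in gut mesenchyme. Foxf1 had 1 count in the females and 7 in the males, a ratio of 6.95 with an exact 95% interval of 0.893 to 313, and 6 of the 7 male counts came from male replicate 2. Without that library 1 count stood in each sex. Foxf2 had 0 counts in the females and 7 in the males, at 1, 3 and 3 in male replicates 1 to 3. Set against a limit of 3 counts over the female group, this is a male over female ratio of 2.32. That ratio leaves out the counting error of the male counts, so it is not a lower bound. Foxq1 had 8 and 4 counts, but 66.1% of its exon bases are shared with A530084C06Rik on the opposite strand. These neighbours were thus nearly silent in libraries in which Foxc1 had 91 to 683 counts and Foxc2, the gene beside Foxf1, had 3 to 61.

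**Figure D3:**
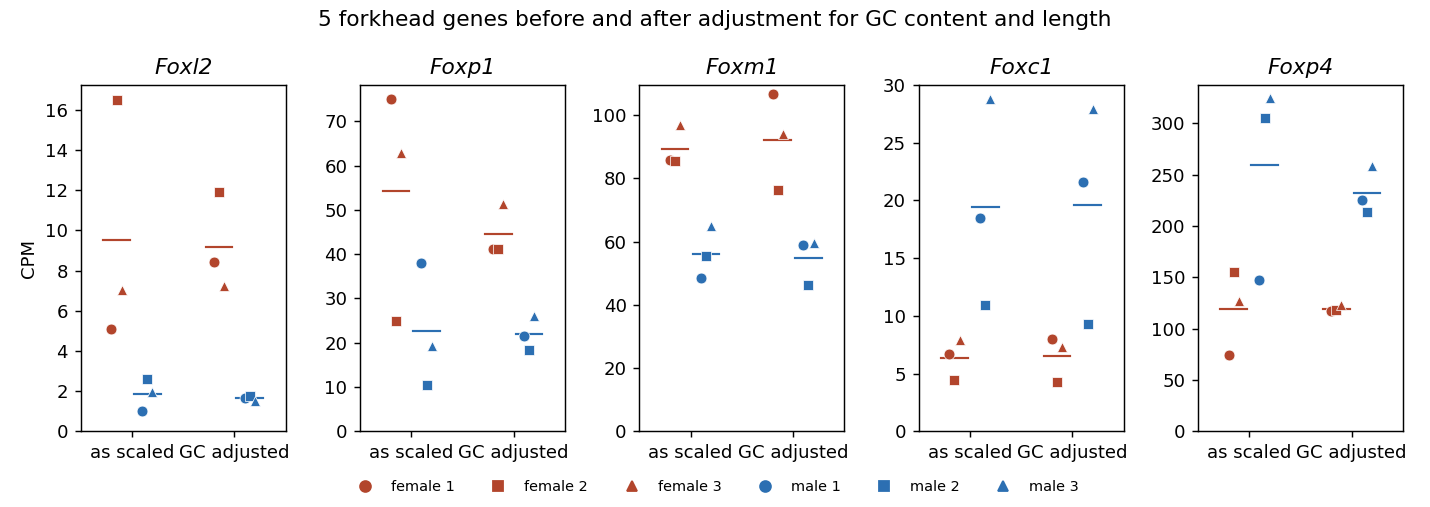
CPM of Foxl2, Foxp1, Foxm1, Foxc1 and Foxp4 in each library as scaled and after adjustment for GC content and length, on linear axes from 0, females in red and males in blue, with short lines for the mean of 3 libraries. The libraries of each sex draw together for Foxl2, Foxp1 and Foxp4, whereas Foxc1 is almost unmoved and the Foxm1 females spread from 76.2 to 106 CPM.

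For the genes above that were called under the adjustment or by DESeq2, the stretch from 250 to 101 bases before the RefSeq transcript start (GRCm38.p6) is shown, because these are the promoters of the genes called with all 6 libraries and no replicate block. Capitals mark GGCGCC, a GC-rich SMAD site, SMAD proteins being the effectors of AMH receptor signalling. Foxl2 is chr9:98955357-98955506 on the plus strand, Foxc1 chr13:31806396-31806545 on the plus strand, Foxp4 chr17:47924733-47924882 on the minus strand and Foxp1 chr6:99266616-99266765 on the minus strand, for which 1 of 3 listed starts was taken.
Foxl2: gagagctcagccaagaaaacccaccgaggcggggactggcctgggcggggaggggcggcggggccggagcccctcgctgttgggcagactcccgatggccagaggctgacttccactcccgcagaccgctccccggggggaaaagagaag
Foxc1: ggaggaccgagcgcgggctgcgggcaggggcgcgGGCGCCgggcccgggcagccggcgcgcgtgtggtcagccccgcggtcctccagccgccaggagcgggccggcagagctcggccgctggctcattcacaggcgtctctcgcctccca
Foxp4: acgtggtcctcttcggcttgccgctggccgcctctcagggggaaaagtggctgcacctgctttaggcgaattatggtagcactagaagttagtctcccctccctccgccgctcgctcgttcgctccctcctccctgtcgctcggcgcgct
Foxp1: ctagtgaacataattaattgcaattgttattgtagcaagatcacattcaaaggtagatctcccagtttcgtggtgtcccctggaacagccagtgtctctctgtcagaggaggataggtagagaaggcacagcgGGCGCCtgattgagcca
GC content was 70.7% in the Foxl2 stretch, 80% in Foxc1, 63.3% in Foxp4 and 47.3% in Foxp1, and they held 11, 22, 14 and 3 CpG dinucleotides. Over 33 such windows of 28 forkhead genes the median GC content was 59.3% with 7 CpGs, beside 50.7% and 3 over all 32851 windows. Searched on both strands, GGCGCC was found in Foxc1 and Foxp1 and in 5 of the 33 forkhead windows (of Foxa2, Foxa3, Foxc1 and Foxp1), where 4.89% of all windows hold it. The forkhead core TGTTTAC was found in 1 forkhead window, of Foxa1, and in 2.01% of all windows, and the palindromic SMAD box repeat GTCTAGAC in 0 of 33 and 0.119% of all. GGCGCC and GTCTAGAC read the same on both strands, and none of the 3 motifs contains another. A match describes these letters only.

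Foxm1 (ENSMUSG00000001517, chromosome 6) encodes the activator of G2 and mitosis genes. It was at 85.8, 85.3 and 96.9 CPM in the females and at 48.3, 55.5 and 64.8 CPM in the males. All males lay below all females, and the replicates of each sex lay close together. The mean was 89.3 ± 6.52 CPM in the females and 56.2 ± 8.23 CPM in the males (SD, n = 3 per sex). The log2 fold change was -0.67 (SE 0.30, 95% interval -1.37 to 0.04, edgeR adjusted p = 0.594), and -0.75 (SE 0.21, adjusted p = 0.0985) after the GC and length adjustment. Of its exon bases 2.50% are shared with Tex52, which had 45 counts.

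Genes known as FOXM1 targets lay on the same side as Foxm1. Of 22 listed, 22 were tested, 0 passed the threshold in edgeR and 0 in DESeq2, and 4 had an unadjusted p under 0.05 in edgeR. All 22 log2 fold changes were negative, with a median of -0.68 beside -0.01 for all genes, and they remained negative under each of the 3 other scalings tried. Without female replicate 2 or without male replicate 1, 4 of the 22 became positive. In 8 of the 22 all male libraries lay below all female libraries, where 7.27% of all tested genes did. Their summed level was 2237 to 2477 CPM in the females and 1415 to 1564 CPM in the males. Nek2, a centrosome kinase, had the smallest p, at 33.4 ± 0.566 CPM in the females and 18.2 ± 2.07 CPM in the males (log2 fold change -0.88, edgeR adjusted p = 0.327). Kif20a, a kinesin of cytokinesis, came second at 89.8 ± 9.32 against 54.8 ± 3.15 CPM (log2 fold change -0.71, adjusted p = 0.507). With the GC and length adjustment 1 of the 22 passed, Ccna2, the S and G2 phase cyclin, with an adjusted p of 0.0464.

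The FOXO genes overlapped between the sexes, and Foxo4 and Foxo3 were among the higher forkhead genes. Foxo4, which is X-linked, had the highest level per length of the 4, with a mean of 34.6 CPM per kilobase. Its level, not divided by length, was 67.4, 129.7 and 118 CPM in the females and 71.9, 131 and 138 CPM in the males. Its replicate 1 was the lowest in both sexes. Foxo3 was at 91.3, 81.1 and 121 CPM in the females and at 121, 105 and 118 CPM in the males. The log2 fold changes were 0.12 (SE 0.42) for Foxo4, 0.23 (SE 0.31, 95% interval -0.51 to 0.97) for Foxo3, -0.01 (SE 0.35, interval -0.82 to 0.81) for Foxo1 and 0.20 (SE 0.57) for Foxo6. For Foxo1 and Foxo3 the intervals leave differences of up to nearly 2-fold possible. Part of the Foxo1 exons, 7.78%, overlaps Gm20402 on the opposite strand, which had 0 counts.

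Upstream of the FOXO factors, 24 of 24 listed kinases and regulators were tested. Of these 0 passed the threshold in edgeR and 0 in DESeq2, with 1 at an unadjusted p under 0.05 in edgeR and a median log2 fold change of -0.21. This median ran from -0.85 without male replicate 1 and -0.53 without female replicate 2 to 0.00 without male replicate 2 and 0.03 without female replicate 1, was -0.05 without male replicate 3, and was -0.05 with the GC and length adjustment. Sgk3, a kinase that phosphorylates FOXO factors, was at 6.51 ± 3.21 CPM in the females and 24.7 ± 19.7 CPM in the males (log2 fold change 1.92, edgeR adjusted p = 0.410). The SD was large beside the mean in the males, and Sgk3 passed with the GC and length adjustment, higher in males (adjusted p = 0.0073).

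Of 27 listed FOXO targets 22 were tested, with 0 passing in edgeR, 1 in DESeq2 and 5 at an unadjusted p under 0.05 in edgeR. The log2 fold changes were positive for 13 and negative for 9, with a median of 0.20, and 4 lay higher and 2 lower in all male libraries, where 6.47% and 7.27% of all tested genes did. The median was -0.01 without male replicate 1, 0.04 without female replicate 2 and 0.10 without female replicate 1. Pdk4, the kinase that turns off pyruvate dehydrogenase, was at 3.12 ± 0.514 CPM in the females and 9.10 ± 1.34 CPM in the males (log2 fold change 1.54, edgeR adjusted p = 0.107). Bnip3, a mitophagy receptor, was at 23.8 ± 2.91 against 46.7 ± 5.22 CPM (log2 fold change 0.97, adjusted p = 0.266). With the GC and length adjustment Pdk4 rose (adjusted p = 0.0128) and Cdkn1a, the cell cycle inhibitor p21, fell by 1.83 on the log2 scale (adjusted p = 0.047).

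**Figure D4:**
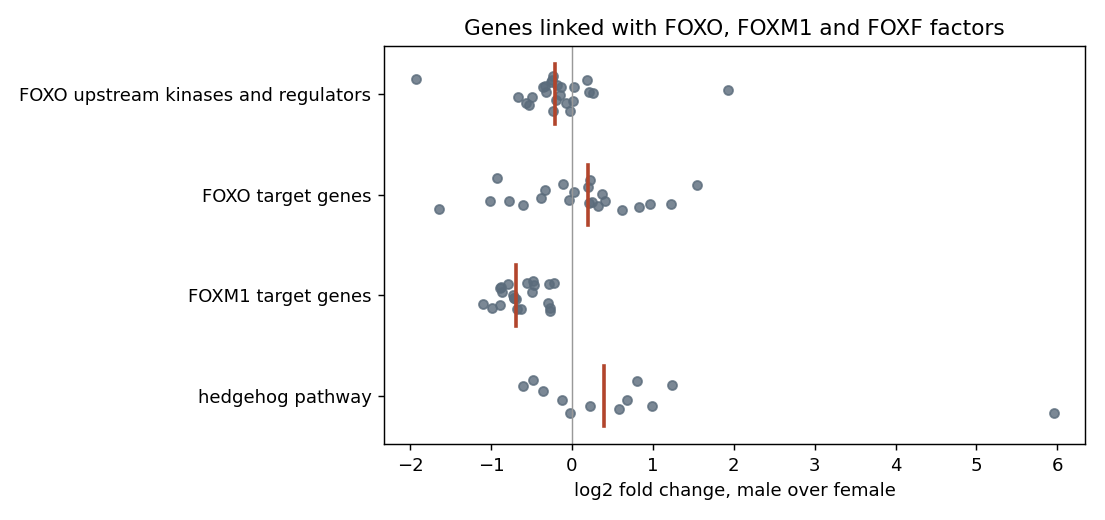
Log2 fold change of male over female for the tested genes of 4 lists, 1 point per gene with vertical jitter, and a red line at each median. All 22 FOXM1 targets lie left of 0, the FOXO lists spread to both sides, and Dhh is the point near 6 in the hedgehog list.

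Hedgehog signalling, which acts on C and F members in several mesenchymes, was read from 14 listed genes, of which 12 were tested. In edgeR 0 passed the threshold and 3 had an unadjusted p under 0.05, while DESeq2 called 2. The median log2 fold change was 0.40, and 3 genes lay higher in all male libraries, where 6.47% of all tested genes did. The median was 0.16 without female replicate 1, 0.23 without male replicate 1 and 0.27 without male replicate 2. Dhh, the hedgehog ligand of Sertoli and Schwann cells, was at 0.0573 ± 0.0511 CPM in the females and 3.78 ± 2.26 CPM in the males (edgeR adjusted p = 0.0516). Boc, a hedgehog co-receptor, was at 54.9 ± 9.40 and 129 ± 14.7 CPM (log2 fold change 1.24, adjusted p = 0.159). With the GC and length adjustment Dhh, Boc and Ptch1, the hedgehog receptor, were called higher in males. The ligand Shh had 4 counts and Ihh 31 over all libraries.

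The K subfamily holds factors that act on metabolism and autophagy. Foxk1 was at 91.4, 103 and 110.1 CPM in the females and at 75.7, 90.6 and 60.9 CPM in the males. The highest male and the lowest female library differed by less than 1 CPM, and the log2 fold change was -0.42 (SE 0.31, edgeR adjusted p = 1). Foxk2 was at 95.4, 131 and 139 CPM in the females and at 87.6, 122 and 123 CPM in the males (log2 fold change -0.14, SE 0.33). Foxk2 overlapped between the sexes.

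In the J subfamily Foxj3 had the highest level per length, at 84.6, 31.9 and 60.6 CPM in the females and 86.3, 25.5 and 38.2 CPM in the males (log2 fold change -0.24, SE 0.58). Its replicates differed far more within a sex than the means did between sexes. Foxj2 was even, at 28.7 to 37.2 CPM in the females and 29.3 to 37.4 CPM in the males, with a log2 fold change of 0.02 (SE 0.30, 95% interval -0.69 to 0.72). Foxj1, the factor of motile cilia, was at 4.89, 17.4 and 9.76 CPM in the females and at 1.76, 12.2 and 9.19 CPM in the males (log2 fold change -0.47, SE 0.77). After the GC and length adjustment every male library, at 2.89, 7.74 and 6.95 CPM, lay below every female library, at 8.43, 12.1 and 10.3 CPM. The difference was then -0.80 on the log2 scale (SE 0.39, edgeR adjusted p = 0.381).

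Of the defining markers of ciliated cells, Mcidas had 2 counts, Dnah5 7 and Hydin 12 over all libraries, while Tekt2, a tektin of the ciliary axoneme, had 2012, Ccdc39 1522 and Ccdc40 1084. Of 15 ciliated cell markers 7 were tested, 0 were called by edgeR or DESeq2, 0 had an unadjusted p under 0.05, and the sum without Foxj1 was 35.7 to 55.5 CPM in the females and 24.4 to 39.5 CPM in the males. Tekt2, Ccdc40 and Rsph1 lay lower in all male libraries, 3 of the 7, where 7.27% of all tested genes did. The part of ciliated cells in the Foxj1 values was not tested. Of 17 duct epithelium markers 11 were tested and edgeR called 1, Epcam, lower in males, against 1.23% of all tested genes. Epcam was at 13.7 ± 3.08 CPM in the females and 2.58 ± 0.477 CPM in the males (log2 fold change -2.41, edgeR adjusted p = 0.0381). This call was lost in 6 of 6 edgeR fits without a library, with adjusted p from 0.0738 to 0.270. DESeq2 called 2 of the 11 lower, against 3.95% of all genes it tested. With the GC and length adjustment edgeR called Epcam (adjusted p = 0.0068) and Cldn4 (adjusted p = 0.0174) lower, against 5.94% of all genes. Cldn4 was at 10.8 ± 9.48 CPM in the females and 1.31 ± 0.838 CPM in the males. In 2 of the 11 all male libraries lay lower, where 7.27% of all tested genes did. The log2 fold change was negative for 8 of the 11 and positive for 3, Cdh1 (0.19), Cldn7 (1.03) and Wnt7a (0.63). That list summed to 242 to 825 CPM in the females and 170 to 539 CPM in the males. Its forkhead members were silent, with Foxa1 at 0 counts and Foxa2 at 2. The part of epithelial cells in the Foxj1 values was not tested.

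The N subfamily held 2 tested genes, Foxn2 and Foxn3, whose products include checkpoint-linked repressors. Foxn2 was at 44.7, 13.6 and 37.5 CPM in the females and at 46.2, 10.4 and 20.3 CPM in the males (log2 fold change -0.32, SE 0.67). Foxn3 ranged from 7.08 to 23.5 CPM in the females and from 5.06 to 23.1 CPM in the males (log2 fold change -0.52, SE 0.70). Foxn1, the thymus factor, and Foxn4, a factor of retinal progenitors, had 1 count each. In both tested N genes replicate 1 was the highest library of each sex.

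Foxd2, a mesenchyme factor, was at 0.698, 1.43 and 1.60 CPM in the females and at 0.841, 2.87 and 1.60 CPM in the males (log2 fold change 0.51, SE 0.58). Its non-coding neighbour Foxd2os was at 1.28 ± 0.425 CPM in the females and 1.2 ± 0.0753 CPM in the males (log2 fold change -0.09). Foxd1, which marks kidney stroma, had 10 counts in the females and 13 in the males, a ratio of 1.29 (exact 95% interval 0.523 to 3.29). Kidney stroma and progenitor markers, of which 6 of 10 were tested, summed to 219.6 to 274 CPM in the females and 149 to 213 CPM in the males. Sall1 made up 55.2% of this sum. Without Sall1 it was 43.0 to 128 CPM in the females and 52.9 to 154 CPM in the males, where the sexes overlapped. Of the 6 tested, edgeR called 0, with 2 at an unadjusted p under 0.05, and DESeq2 called 1 lower, against 3.95% of all genes it tested. The log2 fold change was negative for 4 of the 6 and positive for 2, Cited1 (0.85) and Wnt11 (0.65). The 2 with the smallest p were Osr1 (log2 fold change -2.16, edgeR adjusted p = 0.113) and Sall1 (-1.08, adjusted p = 0.365). With the GC and length adjustment Osr1 was called lower (edgeR adjusted p = 0.0068), against 5.94% of all genes. Foxd3, the neural crest factor, had 0 counts, while Sox10 had 28 and, of 10 neural crest, glia and neuron markers with 5 tested, Stmn2 was called higher in males (log2 fold change 2.50, edgeR adjusted p = 0.0253). That list summed to 16.4 to 31.0 CPM in the females and 70.2 to 79.0 CPM in the males, 72.3% of it Stmn2, and without Stmn2 to 4.67 to 21.4 and 10.03 to 23.2 CPM, where the sexes overlapped. The Stmn2 call held in 1 of 6 fits without a library, the fit without male replicate 1.

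Foxs1, a factor of vessel-associated pericytes, was at 0.551, 2.07 and 0.720 CPM in the females and at 0.229, 3.51 and 2.11 CPM in the males (log2 fold change 0.81, SE 0.96). Male replicate 1 was the lowest of all 6 libraries and male replicate 2 the highest, so the sexes overlapped throughout. Among the other untested genes Foxa3 had 12 counts in all, Foxh1 10, and Foxb2, Foxe1, Foxe3 and Foxi3 1 each. Foxr1 had 10 counts in the females and 11 in the males and Foxr2 13 and 8.

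The spread within each sex followed the GC content of the transcripts. The 20 tested forkhead genes had a median GC content of 55.2%, beside 49.99% for all tested genes. Over these 20 genes, the log2 ratio of replicate 1 to replicate 2 correlated with GC content at Pearson r = -0.81 in the females and -0.83 in the males. Over 14674 genes the same values were -0.68 and -0.72. These are descriptions across genes that share their libraries. All 6 forkhead genes under 50% GC (Foxj3, Foxn2, Foxn3, Foxo1, Foxp1 and Foxp2) were higher in replicate 1 than in replicate 2 in both sexes, with a median ratio of 3.15 in the females and 3.51 in the males. Of the 6 at 60% GC or more (Foxc2, Foxd2, Foxj1, Foxl2, Foxo6 and Foxp4), only Foxc2 in the females had a ratio above 1, and the medians were 0.401 and 0.395.

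**Figure D5:**
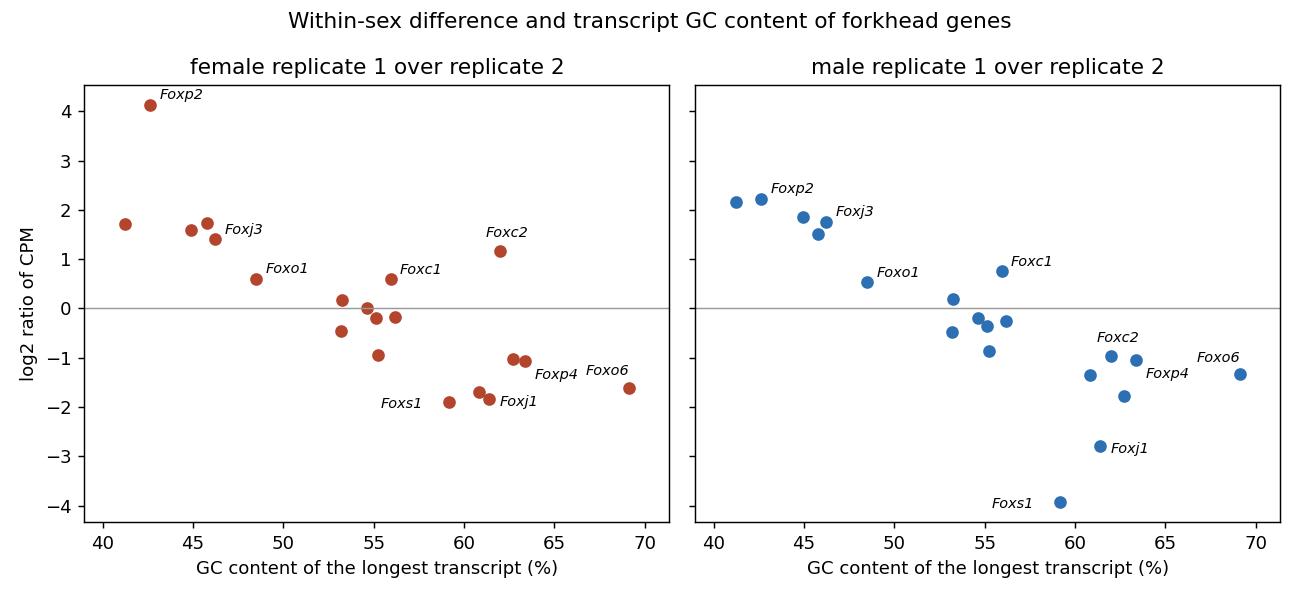
Log2 ratio of CPM of replicate 1 over replicate 2 against the GC content of the longest transcript for the 20 tested forkhead genes, females left and males right, with 9 genes named. In both sexes the points fall from upper left to lower right, with Foxp2 at the upper left and Foxo6 at the far right.

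The adjustment for GC content and length reduced the spread between libraries for 10 of the 12 genes under 50% or at 60% GC and more. The trend was fitted to these same libraries, so a smaller spread at low and high GC content is in part built in. The exceptions were Foxo1, whose ratio of the highest to the lowest library went from 1.66 to 1.79, and Foxc2, from 17.4 to 18.9. For Foxp2 this ratio went from 17.5 to 4.61, for Foxj1 from 9.89 to 4.17 and for Foxp1 from 7.16 to 2.80. For Foxc1, with 55.9% GC, it went from 6.43 to 6.56, and for Foxm1, with 54.6%, from 2.00 to 2.31. After adjustment 8 of the 20 forkhead genes had no overlap between the sexes, where 22.8% of all tested genes had none. Foxp4 joined Foxc1 and Foxc2 on the higher side, and Foxj1 and Foxp1 joined Foxl2, Foxm1 and Foxk1 on the lower side. The genes called under it, Foxl2, Foxp1 and Foxp4, were 3 of 20, and of these Foxl2 alone was called with each library left out.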

How the data were processed

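RNA was sequenced on an Illumina HiSeq instrument as paired reads of 76 bases from TruSeq v2 libraries, per the labels' protocols. The authors deposited 1 file of raw, unscaled counts by Ensembl gene for every library. Per the submitters' processing notes the tools included TopHat, HTSeq and DESeq and the build was mm9. The annotation release, and whether counting used strand, is not given in the sources used here. Since TruSeq v2 keeps no strand, reads of an antisense gene cannot be told apart, and near-identical copies can share counts. The 5 summary lines that name no gene were left out, with 3.53% to 18.2% of uniquely placed counts outside genes and 6.51% to 10.0% ambiguous. Of 37991 identifiers 32919 matched a symbol.

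Genes kept by edgeR's filterByExpr (15227) were normalised by TMM, and sexes were compared in edgeR 4.0.16 under R 4.3.3 (quasi-likelihood, robust, sex alone, two-sided), with a threshold of 0.05 after Benjamini-Hochberg adjustment over all of them. DESeq2 1.42.0, limma-voom (limma 3.58.1), other scalings and filters, a replicate block and left-out libraries were alternatives. The GC and length offset used splines with 5 degrees of freedom, and 96.4% of tested genes had a GC value. The fits were also run on simulated counts that held no trend with GC content or length and no replicate effect. That run cannot show how well the offset or the block removes such effects. Gene lengths, GC content, overlaps and neighbours come from a GRCm38 annotation, a later build than mm9, so no gene coordinates are given. Promoters come from RefSeq.

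The members and lists were chosen with earlier results of these data known. Values per library are given for members past the threshold in any fit, without overlap between the sexes, or highest per length in their subfamily. From each list, the members past the threshold, or the 2 with the smallest p, and its defining markers are named, and other listed genes that are named were chosen after their values were seen. Values of some genes under this rule are not reported here.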

Additional observations from a re-analysis of the deposited data

Results flagged for a closer look

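The share of uniquely placed counts that fell outside annotated genes, which no comparison above uses, was 3.53% in the lowest library (female replicate 2) and 18.2% in the highest (male replicate 1). It was marked because it is a signal outside the gene counts. Both replicate 1 libraries, in which forkhead genes under 50% GC were higher than in replicate 2, had the larger shares of their sex.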

How the results depend on the processing

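Over 25 alternatives, 9 of them added after seeing the data, 9 of the 20 tested forkhead genes kept their direction throughout and 9 were called at least once. Scalings, filters and limma-voom called 0 forkhead genes and 174 to 224 genes in all. DESeq2 called 721 genes, 2 of them forkhead, and the GC and length offset called 905 and 3. Leaving out libraries, with or without the offset, gave 0 to 742 genes and 0 to 2 forkhead genes. Without the offset, a left-out library gave 0 to 173 genes and 0 forkhead genes. edgeR called 0 genes without female replicate 3 (884 at an unadjusted p under 0.05) and without male replicate 3 (938). Leaving out both libraries of replicate 1 gave 354 genes, and of replicate 2 or replicate 3 gave 0 (1103 and 455 at an unadjusted p under 0.05). With a left-out library under the offset, 243 to 742 genes and 1 to 2 forkhead genes were called. The cause was not tested. A fit with 2 libraries in a sex has fewer degrees of freedom.

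No log2 fold change was past the threshold in an alternative that turned its sign. Foxj2 turned to -0.0519 with library totals, -0.0321 with the offset and -0.0314 with offset and block. Foxo1 turned to 0.0157 with DESeq2 size factors, 0.0081 in DESeq2, 0.0087 in limma-voom, 0.009 with the block, 0.2496 with the offset and 0.239 with both. Foxo4 turned to -0.0424 with the offset and -0.039 with both. Foxp2 turned to 0.2123 in limma-voom, 0.0449 with the block, 0.2602 with the offset and 0.3042 with both. With libraries left out the log2 fold change ran from -0.0261 to 0.8459 for Foxd2, -1.0422 to 0.0795 for Foxj1, -0.088 to 0.1089 for Foxj2, -0.8918 to 0.1137 for Foxj3, -0.2889 to 0.003 for Foxk2, -1.0586 to 0.0518 for Foxn2, -0.194 to 0.425 for Foxo1, -0.124 to 0.3594 for Foxo4, -0.1438 to 0.5636 for Foxo6, -1.3625 to 1.384 for Foxp2 and -0.0813 to 1.6149 for Foxs1.

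Replicate numbers are shared by the sexes, but no label ties a number to an animal, litter or day. Deviations from the sex means correlated at 0.93 between the replicate 1 libraries, 0.85 for replicate 2 and -0.07 for replicate 3, so the numbers were not taken as pairs, and female replicate 3 correlated best with male replicate 1 (0.22). With a replicate block 4164 genes (27.3%) were called, among them 7 forkhead genes (Foxc1, Foxc2, Foxj1, Foxl2, Foxm1, Foxp1 and Foxp4). With block and offset 4418 genes (29.0%) and 9 forkhead genes were called, Foxk1 and Foxo3 in addition. Depth limits Foxc2, Foxd2, Foxs1 and Foxp2 and the 23 untested genes.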

Other observations

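Regulators of visceral mesenchyme, the tissue in which F subfamily genes are usually active, were tested for 6 of 8 listed genes. Their summed level was 619 to 985 CPM in the females and 1081 to 2122 CPM in the males, and most of it was Pdgfra. Hlx, a homeobox gene of gut and liver mesenchyme, was called higher in males, at 0.0717 ± 0.0316 CPM in the females and 1.17 ± 0.533 CPM in the males (log2 fold change 3.96, edgeR adjusted p = 0.0494). That call held in 1 of 6 fits that left out a library, the fit without male replicate 1. The median log2 fold change of the 6 was 0.65.

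Mesothelial markers, of which 5 of 6 were tested, had 0 called and 2 at an unadjusted p under 0.05 in edgeR and 0 called in DESeq2. They summed to 554 to 669 CPM in the females and 492 to 514 CPM in the males, and 58.4% of this was Wt1. Without Wt1 the sum was 158 to 347 CPM in the females and 126 to 277 CPM in the males, where the sexes overlapped. Of 7 listed non-coding neighbours of forkhead genes 2 were in the count files, Foxd2os and Foxo6os, and Foxo6os had 3 counts over all libraries.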
